A study of Mus musculus with 6 samples.

Results

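Lactotropes are the prolactin-secreting endocrine cells of the anterior pituitary. In the mouse pituitary libraries examined here they were the cell barcodes with at least 200 genes detected and at most 25% mitochondrial transcripts, in which prolactin (Prl) made up at least 10% of the unique molecular identifiers (UMIs, counted transcripts). Growth hormone (Gh) had to stay under 30%, Pomc under 5% and the gonadotropin beta subunits Lhb and Fshb together under 1%. The rule found 763 barcodes among 10244 kept pituitary barcodes and 22426 kept barcodes of the whole series, 376 in the control library and 387 in the stress library. By droplet single-cell RNA sequencing the study profiled 3 organs of the stress axis, among them the pituitary, in C57BL/6 mice aged 10 weeks. Each tissue gave 1 control library and 1 library from mice exposed to chronic social defeat over 21 days, a paradigm in which a mouse is repeatedly defeated by an aggressor. Each library was a pool of 5 mice, and the labels name no engineered allele in either group. The pools were dissociated with papain and loaded in separate lanes of 1 chip. The comparison between conditions thus rests on 1 library each, has no replicate check, and cannot tell condition and pool apart. All intervals below are exact 95% intervals for counting error only.

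Prolactin drives milk production and also acts on metabolism, reproduction and the stress axis. Its gene lies on chromosome 13 (27057570 to 27065205, plus strand, GRCm38, ENSMUSG00000021342). Its cells share their lineage with the growth hormone cells (somatotropes) and thyrotropes through the transcription factor POU1F1. Hypothalamic dopamine holds lactotropes under tonic inhibition through the D2 receptor and inhibitory G proteins, while estrogen and thyrotropin-releasing hormone act as stimulators. Glucocorticoids, the end product of the stress axis, reach pituitary cells through the receptors encoded by Nr3c1 and Nr3c2.

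The promoters of 3 genes frame the results that follow, so the 250 bases before each start site are shown from RefSeq (GRCm38.p6). Prl is the gene that defined the cells, and Hspa1a and Jun were the genes with the highest stress-to-control ratios by the interval bound nearest 0. The Prl window is chr13:27057320-27057569 on the plus strand. Capitals mark TATNCAT, a motif of POU1F1 sites, searched on both strands.
Prl: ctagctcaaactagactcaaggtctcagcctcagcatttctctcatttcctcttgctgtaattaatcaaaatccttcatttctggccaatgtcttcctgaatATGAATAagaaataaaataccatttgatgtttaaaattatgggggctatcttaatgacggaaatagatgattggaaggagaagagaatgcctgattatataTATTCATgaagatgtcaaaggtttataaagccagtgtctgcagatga
It held 2 matches, beginning 148 and 47 bases before the start. Of 32851 promoter windows of the same length, 7.92% held the motif and 1.26% held it 2 or more times. The Hspa1a window is chr17:34972157-34972406 on the minus strand, with the heat-shock element core GAANNTTC in capitals.
Hspa1a: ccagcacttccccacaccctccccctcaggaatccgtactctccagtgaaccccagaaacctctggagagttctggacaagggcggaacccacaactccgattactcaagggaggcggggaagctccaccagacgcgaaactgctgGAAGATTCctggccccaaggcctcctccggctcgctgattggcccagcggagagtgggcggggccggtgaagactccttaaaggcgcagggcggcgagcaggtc
It held 1 match, 104 bases before the start, and 6.69% of windows held the core. The Jun window is chr4:95052223-95052472 on the minus strand, with TGACATCA, a site type bound by AP-1 and ATF factors, in capitals.
Jun: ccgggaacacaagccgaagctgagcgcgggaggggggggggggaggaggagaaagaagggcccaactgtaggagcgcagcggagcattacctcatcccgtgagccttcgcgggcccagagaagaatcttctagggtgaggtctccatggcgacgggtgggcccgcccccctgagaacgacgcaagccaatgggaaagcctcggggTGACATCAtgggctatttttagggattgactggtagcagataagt
Its 1 match began 45 bases before the start, and 2.93% of windows held these letters. The core and TGACATCA were also searched on both strands, and the motifs do not overlap within a window. A match describes the letters only.

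The lactotropes held 3240457 UMIs in the control and 3530714 in the stress library, with medians of 8634 and 9017 UMIs and 2510 and 2525 genes per barcode. Barcodes with few genes were more frequent in the control library, where 97 lactotropes (25.8%) had under 1500 genes against 62 (16.0%) in the stress library. More than 8% mitochondrial UMIs was seen in 73 control and 26 stress lactotropes. The pituitary libraries shared 39 barcode sequences, none of them among lactotropes. Prl was counted 0 times in the paraventricular and adrenal libraries. Among kept pituitary barcodes with Prl at or above 10%, the rule left out few: 382 in the control and 393 in the stress library met the Prl limit. Gh removed 4 and 5 of them, Pomc removed 1 and 1, and Lhb with Fshb removed 1 and 0.

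The Prl and Gh shares chose the lactotropes, so their levels in this paragraph are a description. Prl took a median of 28.5% of a lactotrope's UMIs in the control library (range 10.0% to 64.2%) and 24.8% in the stress library (10.1% to 67.2%). Gh took a median of 2.47% and 3.28%. In UMIs this was 198 and 278 Gh transcripts per lactotrope, against 170 and 244 in barcodes with endothelial markers and 175 and 255 in barcodes with macrophage markers, cells that make no Gh. Somatotropes, taken as barcodes with at least 30% Gh, held 5802 and 6527. The median Gh count of lactotropes was thus near that of unrelated cells, whose own median depth was 3436 and 3947 UMIs for endothelial and 4368 and 4400 for macrophage barcodes. A Gh share of at least 10% was found in 12 lactotropes of each library. Prl in turn stood at a median of 36 and 40 UMIs in somatotropes, 27 and 31 in endothelial and 29 and 32 in macrophage barcodes, against 2162 and 2081 in lactotropes.

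**Figure D1:**
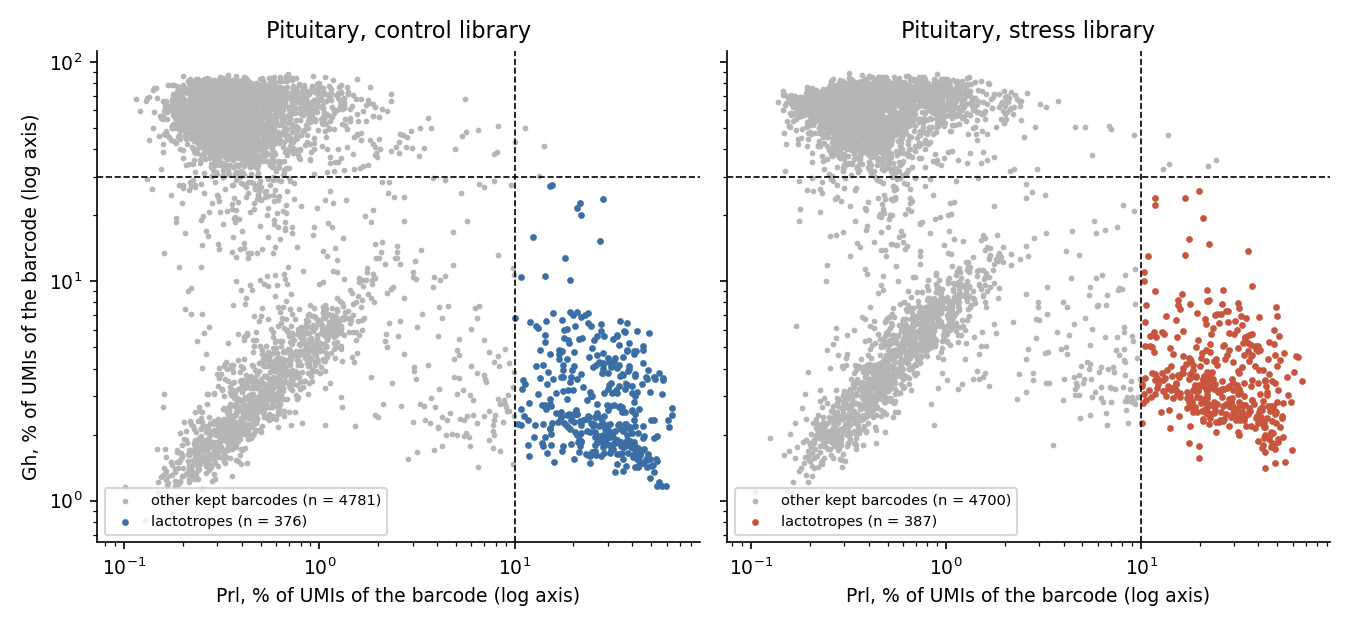
Each point is 1 kept pituitary barcode, with the share of its UMIs that were Prl (x axis, percent, log) and Gh (y axis, percent, log), for the control (left) and stress (right) library. Blue and red points are the 376 and 387 lactotropes, grey points the 4781 and 4700 other barcodes, and dashed lines the limits of 10% Prl and 30% Gh. Lactotropes lie at the right, the Gh-rich barcodes at the upper left and barcodes low in both at the lower left, with a sparse set just outside the Prl limit.

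The lower Prl limit cut through a continuous range. Just inside it, 14 control and 28 stress lactotropes had a Prl share of 10% to 12%. Just outside, 22 and 28 barcodes had 8% to 10%, and 42 and 44 had 5% to 8%. Chgb, the granule protein chromogranin B, was at 7355 and 6004 counts scaled to 1000000 UMIs (CPM) in the barcodes just inside, 5329 and 5086 at 8% to 10%, and 5950 and 5215 at 5% to 8%. Six6, a pituitary homeobox factor, was at 811 and 681 CPM inside and at 659 and 827 at 8% to 10%. Barcodes with these genes therefore lay on both sides of the limit.

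Lactotropes made up 7.29% of kept barcodes in the control library (376 of 5157, Clopper-Pearson interval 6.60% to 8.03%) and 7.61% in the stress library (387 of 5087, 6.89% to 8.37%). The intervals overlapped. With a Prl limit of 20% the order of the libraries turned, to 5.41% and 5.21%. Prl itself stood at 310641 CPM in the control and 294858 CPM in the stress lactotropes, a log2 ratio of -0.08 (interval -0.08 to -0.07). Since Prl chose the cells, these levels are a description. In both libraries lactotropes held most of the Prl transcripts of the pituitary, 80.7% and 79.7%.

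Pou1f1 and several known lactotrope genes were higher in lactotropes than in somatotropes, while the dopamine receptor was hardly counted. In the following comparison with somatotropes, levels are non-hormone CPM, UMIs per 1000000 UMIs other than those of 7 pituitary hormone genes, because the hormones took 34.9% and 33.7% of the lactotropes' UMIs. Folds and log2 ratios between the classes have 0.5 UMI added to each sum. Counts of genes in this comparison cover those with at least 50 UMIs summed over both classes and both libraries. A gene can thus enter through somatotropes alone, which are more numerous, so the counts of lower genes are a description. Pou1f1 (chromosome 16, 65520511 to 65535005) was at 817 and 947 in lactotropes and at 454 and 452 in somatotropes. Lhx3, a LIM factor of pituitary development, was 7.63-fold and 7.58-fold higher in lactotropes, where it was at 153 and 150. Of 18 lineage factors, 3 were more than 2-fold higher in both libraries, Lhx3 and Etv1 among them, and Gata2, Sox2 and Rxrg were more than 2-fold lower, beside 4.27% and 9.25% of all genes. As a list, 7 were higher and 10 lower in both libraries, with median log2 ratios of -0.35 and -0.37. Angpt1, the endothelial growth factor angiopoietin 1, was at 102 and 85.0 against 2.29 and 2.49, and Edil3, a secreted integrin ligand, at 174 and 181 against 4.64 and 4.19. Drd2, the dopamine D2 receptor (chromosome 9, 49340627 to 49408177), gave 4 UMIs in each library over all lactotropes. That was 1.90 and 1.71, against 0.0654 and 0 in somatotropes, which held 1 and 0 UMIs. Of the other lactotrope markers, Ednrb had 1 and 3 UMIs and Agtr1b had 0.

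Markers of cells that make no pituitary hormone gave few UMIs in the lactotropes, with Col1a2 as an exception. Marker lists of the other hormone cells, which hold the hormone genes themselves, gave more. They ranged from 8517 and 7157 UMIs for thyrotropes to 106748 and 136084 for somatotropes. Wfdc2, listed as a somatotrope marker, was more than 2-fold higher in lactotropes than in somatotropes in both libraries. The 8 markers of stem and folliculostellate cells summed to 34 and 26 UMIs, those of endothelial cells to 87 and 192, of macrophages to 281 and 34, and of fibroblasts and pericytes to 441 and 601. Of the fibroblast sum, Col1a2, a collagen I chain, gave 379 and 407 UMIs, with at most 7 and 8 in 1 barcode. At 180 and 174 non-hormone CPM it was higher in lactotropes than in the other pituitary classes examined, such as somatotropes at 60.8 and 69.8 and stem and folliculostellate marker barcodes at 87.3 and 76.9. Col3a1 and Dcn were also more than 2-fold higher than in somatotropes in both libraries, with 16 of 16 and 84 of 95 stress UMIs in 1 barcode. Lymphocyte markers summed to 6 and 9, erythroid markers to 11 and 54 and pituicyte markers to 15 and 9. Mixed barcodes, named so below, had Tshb above 1% of UMIs or at least 5 UMIs of a marker list. The lists used were endothelial, macrophage, stem and folliculostellate, erythroid, lymphocyte, and fibroblast and pericyte without Col1a2. Markers of other hormone cells, apart from Tshb, and of pituicytes were not used. By this rule 8 control and 2 stress lactotropes were mixed.

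Measured against somatotropes, lactotropes carried a group of receptor, synaptic and matrix genes at more than 20-fold higher levels in both libraries. Of 12496 genes with at least 50 UMIs over both classes, 533 (4.27%) were more than 2-fold higher in lactotropes in both libraries. Another 1156 (9.25%) were more than 2-fold lower. Genes were ranked if they had at least 100 UMIs in lactotropes over both libraries. Because the cells were chosen by their hormones, the ranking is a description with no test. Beside Prl, the genes ranked highest were Syndig1, a synapse protein (44.1 and 45.7 in lactotropes, 0.458 and 0.786 in somatotropes), Cilp and Hapln1, both of the extracellular matrix, Nov, Edil3 and Agtr1a. Agtr1a, an angiotensin II receptor, was at 122 and 83.3 in lactotropes against 3.46 and 1.57. Chrna6, a nicotinic acetylcholine receptor subunit, was at 84.3 and 84.6 against 1.57 and 2.56, and Gabra2, a GABA-A receptor subunit, at 72.0 and 52.1 against 1.37 and 2.23. Gad2, a GABA-synthesizing enzyme, was at 32.7 and 44.9 against 0.915 and 1.38. Angpt1, Car2, Gpr12 and 6030419C18Rik were also among the 15 highest.

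Among genes with at least 100 UMIs in lactotropes over both libraries, those lowest relative to somatotropes began with Gh. Genes with fewer, such as Nr3c1 below, were not ranked. Usp2, a deubiquitinase, was at 22.3 and 23.1 in lactotropes and 219 and 182 in somatotropes, and Dapl1 at 55.9 and 46.2 against 399 and 516. Kcnk2, a two-pore potassium channel, was at 104 and 60.3 against 498 and 427. Ncam1, Cidea, Gadd45a, Nebl and Stk32c were others of this group. Their somatotrope levels were 4.52 to 6.45 times those in lactotropes.

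Genes of dopamine signaling lay near somatotropes as a list, with median log2 ratios of 0.00 and -0.10. Of 29 genes in a list of dopamine, inhibitory G protein and cyclic AMP signaling, 2 were more than 2-fold higher in lactotropes in both libraries and 4 more than 2-fold lower, beside 4.27% and 9.25% of all genes. The higher genes were both inhibitory G protein alpha subunits. Gnai1 was at 72.0 and 32.9 in lactotropes and at 2.22 and 3.08 in somatotropes, and Gnaz at 90.5 and 93.2 against 20.3 and 16.1. Gnai2, another such subunit, was at 344 and 335 against 263 and 251. The lower genes were Rgs16, Adcy2, Pde8b and Prkar2b.

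Sex steroid and thyroid hormone receptors were present. Esr1, the estrogen receptor alpha gene, was at 111 and 104 in lactotropes, 1.23 and 1.41 times the somatotrope level. Thrb, the thyroid hormone receptor beta, was at 131 and 177 against 29.3 and 34.1. Of 14 genes in the sex steroid and thyroid list, 4 were more than 2-fold higher than in somatotropes in both libraries, among them Pgr, Thrb and Vdr, and 2 more than 2-fold lower (Gper1 and Rarb), beside 4.27% and 9.25% of all genes.

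Most receptors for releasing factors were hardly counted in lactotropes, with Agtr1a (258 and 195 UMIs) as an exception. Of 17 in the comparison with somatotropes, 3 were more than 2-fold higher in both libraries (Agtr1a, Gabbr2 and Egfr). Another 7 were more than 2-fold lower, beside 4.27% and 9.25% of all genes higher and lower. Of 38 listed receptors, 14 had no UMI in any lactotrope, and 5 reached 50 UMIs over both libraries. Trhr, the thyrotropin-releasing hormone receptor, had 2 and 1 UMIs, and Vipr1, Vipr2, Oxtr and Galr1 had 0. At a count of 0, the limit of 3 counts corresponds to 1.42 and 1.28 non-hormone CPM. Prlr, the prolactin receptor, was at 58.8 and 66.2 in lactotropes and 133 and 136 in somatotropes.

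The glucocorticoid receptor gene Nr3c1 (chromosome 18, 39410545 to 39519421) was lower in lactotropes than in each of the other pituitary classes examined. It gave 20 UMIs in control and 25 in stress lactotropes, or 9.48 (interval 5.79 to 14.6) and 10.7 non-hormone CPM. Somatotropes were at 152 and 144, Pomc cells at 142 and 154, and gonadotropes at 32.5 and 35.1. Barcodes with endothelial markers were at 177 and 123, those with macrophage markers at 99.6 and 84.2, and those with stem and folliculostellate markers at 113 and 116. The order from lowest to highest thus began with lactotropes and gonadotropes in both libraries, and in the stress library the interval of lactotropes (6.91 to 15.8) did not meet that of gonadotropes (26.2 to 46.0). With 0.5 UMI added, the level in somatotropes was 15.6 and 13.2 times that in lactotropes. The mineralocorticoid receptor gene Nr3c2 had 9 and 5 UMIs in lactotropes, or 4.26 and 2.14, against 33.2 and 33.1 in somatotropes. Pomc cells and stem and folliculostellate marker barcodes also stood above lactotropes in both libraries. Gonadotropes were at 2.58 and 4.73, endothelial marker barcodes at 4.60 and 3.42 and macrophage marker barcodes at 8.89 and 2.05. Lactotropes were thus not the lowest class for Nr3c2 in either library. The part of free RNA in such low counts was not tested.

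Genes known to respond to glucocorticoids were mostly lower in lactotropes than in somatotropes. Of the listed genes, 22 had at least 50 UMIs summed over both classes. Of these, 15 were more than 2-fold lower in both libraries and none more than 2-fold higher, beside 9.25% and 4.27% of all genes. In lactotropes alone 14 of the list reached 50 UMIs, so the other genes counted here entered through the more numerous somatotropes. The count of lower genes is therefore a description. The median log2 ratio of lactotropes over somatotropes was -1.39 in the control and -1.60 in the stress library, and -0.12 in both over all genes. Fkbp5, a co-chaperone of the glucocorticoid receptor, was at 32.2 and 29.5 in lactotropes and 119 and 107 in somatotropes. Zbtb16, a zinc finger repressor, was at 10.9 and 4.27 against 53.8 and 43.0, and Klf9, a Krüppel-like factor, at 77.2 and 79.5 against 198 and 187. Tsc22d3, which encodes the leucine zipper protein GILZ, was not among the 15, at 102 and 88.9 against 145 and 124. Gonadotropes stood near or below lactotropes for Klf9 (78.0 and 66.8), Zbtb16 (5.68 and 4.05) and Tsc22d3 (49.6 and 36.5). For Fkbp5 they stood above lactotropes, at 88.8 and 70.9. Between conditions, Nr3c1 differed by a log2 ratio of 0.19 (-0.71 to 1.12) and Fkbp5 by -0.10 (-0.61 to 0.40), so a difference was not detectable at this depth.

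**Figure D2:**
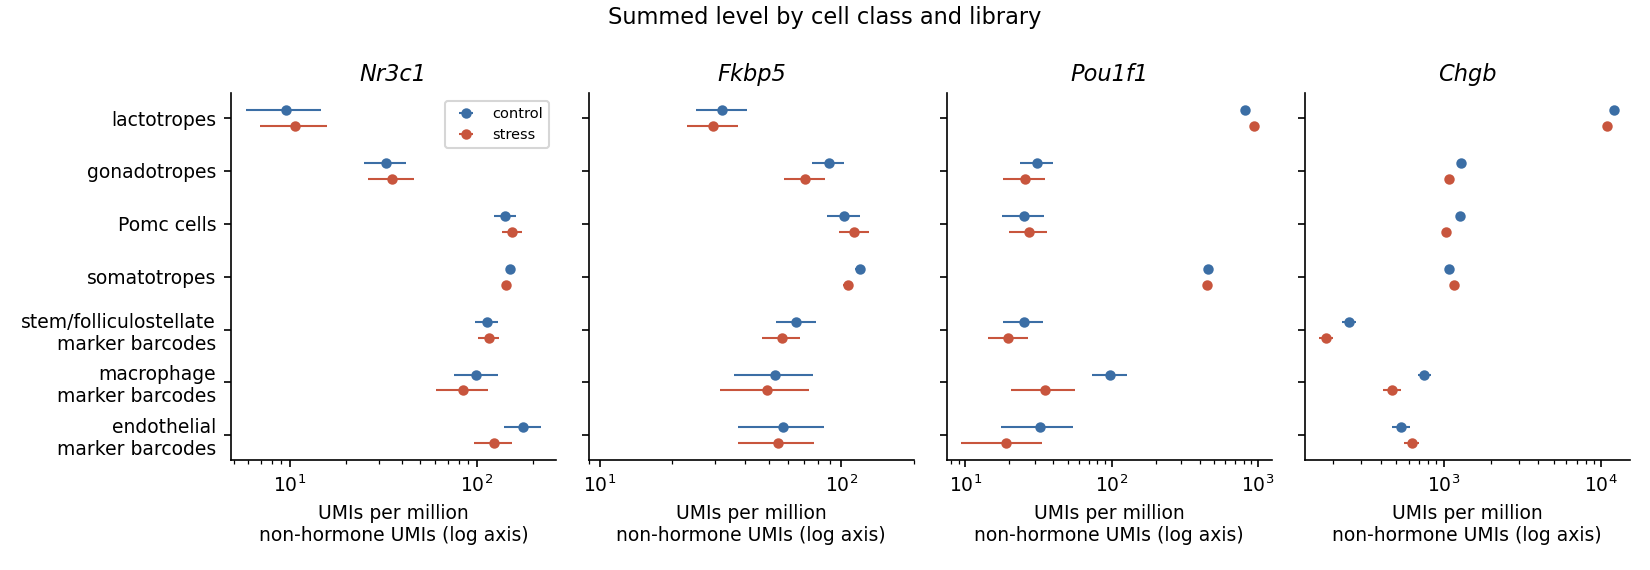
Summed levels of Nr3c1, Fkbp5, Pou1f1 and Chgb (x axes, UMIs per 1000000 UMIs other than the hormone genes, log) in 7 classes of pituitary barcodes (y axis), with exact 95% Poisson intervals, blue for the control and red for the stress library. Lactotropes have the lowest Nr3c1 and Fkbp5 levels and the highest Pou1f1 and Chgb levels of these classes.

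Of 20 listed secretory granule genes, 6 were more than 2-fold higher in lactotropes than in somatotropes in both libraries, beside 4.27% of all genes: Chgb, Scg2, Scg3, Scg5, Cpe and Nucb2. The median log2 ratios were 0.70 and 0.60, and 1 gene was more than 2-fold lower, beside 9.25% of all genes. Chgb (chromosome 2, 132781278 to 132795079) was at 12089 and 10817 in lactotropes against 1080 and 1158 in somatotropes, 1266 and 1030 in Pomc cells and 1289 and 1082 in gonadotropes. Scg2, secretogranin II, was at 3195 and 3664 against 598 and 613 in somatotropes, but at 12333 and 14598 in gonadotropes. Sytl4, the granule-docking protein granuphilin, was the 1 granule gene more than 2-fold lower, with somatotropes at 10.8 and 12.8 times its lactotrope level. Among genes of the endoplasmic reticulum (ER), Hspa5 and Sdf2l1 were also more than 2-fold higher than in somatotropes. Hspa5, which encodes BiP, was at 1670 and 1915 against 799 and 749.

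Among lactotropes, Chgb had the highest and Ly6h the lowest correlation with the Prl share. Across the 247 control and 280 stress lactotropes with at least 2000 genes, the Spearman correlation between the Prl share and the level relative to all UMIs other than Prl was computed for 2415 genes. The cells share a library and differ in depth, so the correlation is a description. Chgb stood at 0.42 and 0.43, followed on the positive side by the tetraspanin Cd63 (0.26 and 0.26), mt-Atp6 (0.26 and 0.27), Gm42418 (0.33 and 0.24) and the chaperone Hspa8 (0.31 and 0.23). On the negative side were Ly6h (-0.56 and -0.62), the farthest from 0, Spint2 (-0.43 and -0.60), Bsg (-0.38 and -0.55), Npc2 and Cst3 (both -0.37 and -0.44).

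The same order appeared in sums over 4 ranges of Prl share, from 10% to 20% up to 40% and above, which held 97, 109, 94 and 76 control and 122, 114, 70 and 81 stress lactotropes. Median depth was 7148 and 8159 UMIs in the lowest range and 11003 and 11212 in the highest. Chgb, in UMIs per 1000000 UMIs other than Prl, stood at 8340, 9915, 13216 and 15837 in the control and at 7600, 9592, 11201 and 14699 in the stress library. Ly6h, a GPI-anchored surface protein, stood at 2278, 1643, 1373 and 763 in the control and at 2065, 1355, 1085 and 573 in the stress library. Hspa5 went from 1334 to 1800 and from 1571 to 2437. Pou1f1 showed no such order, at 798, 816, 812 and 610 in the control and 887, 948, 889 and 806 in the stress library. The stimulatory G protein gene Gnas was nearly flat (6912 to 7078, and 7621 to 7648).

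**Figure D3:**
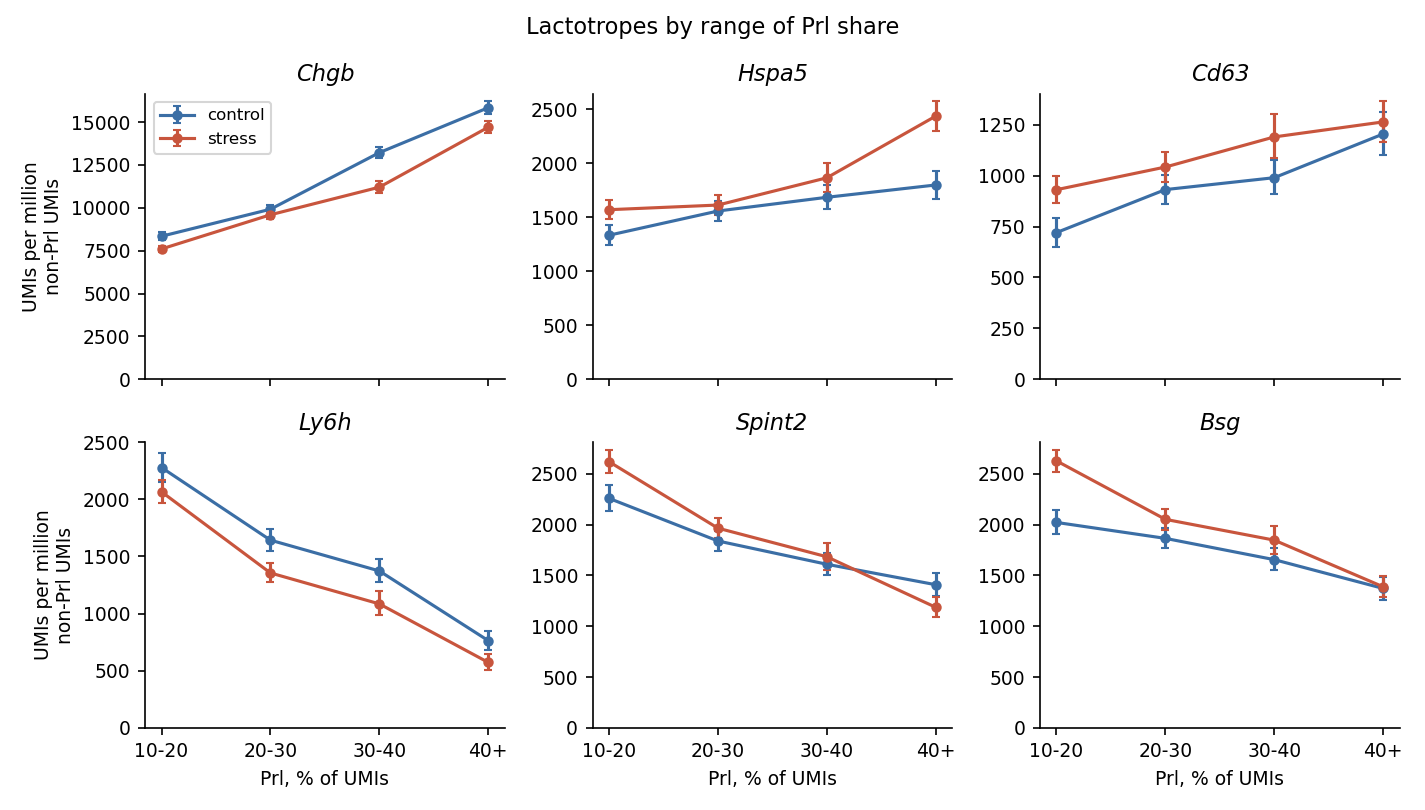
Levels of 6 genes in lactotropes grouped by Prl share (x axis, percent of UMIs), in UMIs per 1000000 UMIs other than Prl (y axis), with exact 95% Poisson intervals, for the control (blue) and stress (red) library. Chgb, Hspa5 and Cd63 stand higher, and Ly6h, Spint2 and Bsg lower, in lactotropes with a larger Prl share in both libraries.

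Between stress and control, the genes with the clearest differences in lactotropes encoded heat-shock proteins and immediate-early factors. Summed UMIs were compared as log2 ratios of CPM (stress over control, 0.5 UMI added) for 8032 genes with at least 50 UMIs. Of these, 226 (2.81%) were more than 1.5-fold higher and 331 (4.12%) more than 1.5-fold lower, together 6.93%, with a median of 0.01. In cells thinned to 2000 UMIs the counts were 174 and 138, and after subtracting the ratio of all other pituitary barcodes 379 and 130, so which direction held more genes turned with these settings. In somatotropes the same genes gave 31 (0.386%) higher and 127 (1.58%) lower, together 1.97%, from more cells and thus smaller counting error, and a median of -0.15. Ratios of somatotropes below should be read against that median.

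Hspa1a, the stress-inducible HSP70 gene (chromosome 17, 34969190 to 34972156), was at 29.6 CPM in control and 304 CPM in stress lactotropes, a log2 ratio of 3.35 (3.06 to 3.68). Its ratio was 3.20 in somatotropes, 3.17 in Pomc cells, 2.85 in gonadotropes, 1.52 in endothelial, 1.61 in macrophage and 0.82 in stem and folliculostellate marker barcodes. Hspa1b, its near-identical neighbor whose reads may not be separable, had 6 and 29 UMIs. The co-chaperone Dnajb1 was at 18.5 and 92.9 CPM (2.32, 1.93 to 2.75) and the small heat-shock protein Hspb1 at 75.6 and 184 CPM (1.28). Hsp90aa1 was at 382 and 667 CPM (0.80). Over the heat-shock list, 16 of 18 measured genes were higher in the stress library and 5 more than 1.5-fold higher, beside 51.1% and 2.81% of all genes. The list's median was 0.47, against 0.24 in somatotropes, and the lowest member was the lens and muscle chaperone Cryab at -0.53. Taken against the median of all genes of each class, the list's medians were 0.46 and 0.39. The sum of the list was 3381 and 5127 CPM. After subtracting the ratio of all other pituitary barcodes, the median was 0.19, Hspa1a stood at 0.76 and Dnajb1 at 0.55, below 1.5-fold. In lactotropes with at least 2000 genes (247 control and 280 stress barcodes), the median was 0.44.

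Jun, an AP-1 subunit (chromosome 4, 95049034 to 95052222), was at 26.9 and 143 CPM in lactotropes (2.41, 2.08 to 2.76) and at 2.27 in somatotropes. Fos, its partner (chromosome 12, 85473890 to 85477273), was at 115 and 250 CPM (1.12, 0.95 to 1.30). In somatotropes Fos was at 92.2 and 385 CPM (2.06). Other immediate-early genes also had larger ratios in somatotropes: Egr1 was at 0.10 in lactotropes and 1.67 in somatotropes, Junb at 0.58 and 1.40, Ier2 at 0.48 and 1.40 and Btg2, the lowest in lactotropes, at -0.10 and 0.80. Nr4a1, an orphan nuclear receptor, went the other way at 0.87 and -0.14. Of 16 measured immediate-early genes, 14 were higher in stress lactotropes and 4 past 1.5-fold, beside 51.1% and 2.81% of all genes. In somatotropes 12 were higher and 10 past 1.5-fold, beside 17.3% and 0.386% of all genes. The somatotrope median was 0.88, against 0.47 in lactotropes. Relative to the median of all genes of each class, 11 of the 16 were lower in lactotropes. In lactotropes with at least 2000 genes the median was 0.29. After subtracting the ratio of all other pituitary barcodes, the lactotrope median turned to -0.24, Fos to -0.26, Junb to -0.35 and Egr1 to -0.90, while Jun stood at 1.11. The difference between the classes was not tested, since each rests on 1 library per condition.

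**Figure D4:**
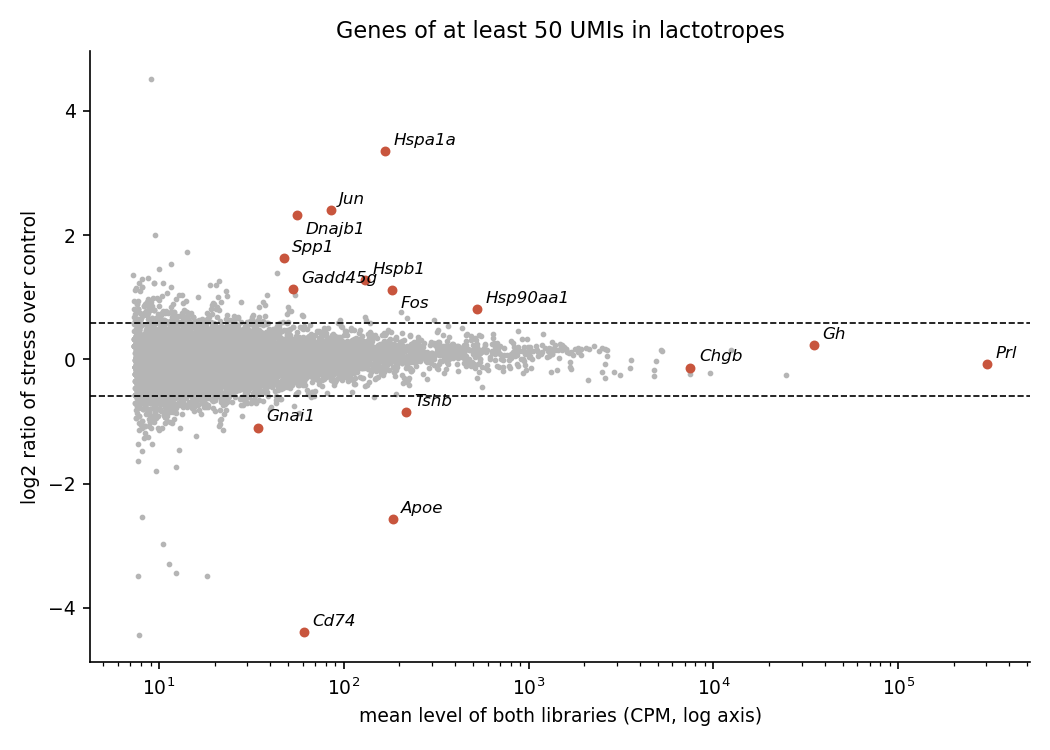
Each point is 1 of 8032 genes with at least 50 UMIs in lactotropes, with the mean CPM of both libraries (x axis, log) and the log2 ratio of stress over control (y axis). Dashed lines mark 1.5-fold. Hspa1a (3.35), Jun (2.41) and Dnajb1 (2.32) stand above the other genes of similar level, and Cd74 (-4.39) and Apoe (-2.57), which had most of their difference from mixed barcodes, stand near the bottom.

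The remaining genes with the largest differences were of diverse function. Gadd45g, a growth arrest gene, was at 33.3 and 73.1 CPM in lactotropes (1.13, 0.80 to 1.47), against 0.08 in somatotropes and 1.36 in Pomc cells. Mvk, mevalonate kinase of cholesterol synthesis, was at 12.3 and 29.7 CPM (1.26, 0.73 to 1.83), and Il18bp, which binds interleukin 18, at 12.3 and 28.6 CPM (1.20, 0.67 to 1.78). In somatotropes these were at 0.02 and -0.01. Gnai1, of the dopamine pathway, ranked next after Cd74 and Apoe among the lower genes, with no more than 4 UMIs in any barcode. It was at 46.9 and 21.8 CPM in lactotropes (-1.10, -1.52 to -0.70), against 0.35 in somatotropes. Its ratio stayed between -1.29 and -0.94 under the alternatives run. Runx1t1, a transcriptional corepressor, was at 73.8 and 40.5 CPM (-0.86), Pik3ip1 at 30.6 and 13.9 CPM (-1.13) and Igf2bp3 at 28.7 and 13.9 CPM (-1.04). Their somatotrope ratios were -0.25, -0.53 and -0.67. AI480526, Gm8186, Hap1, 1500009L16Rik and Slc7a4 were also among the 12 lowest, between -1.24 and -0.92.

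Several large ratios became smaller or turned when the 8 control and 2 stress mixed barcodes were left out. Of 376 Cd74 UMIs in the control lactotropes, 1 barcode held 351, and the ratio of -4.39 became -0.48 without them. Apoe went from -2.57 to 0.14, with 463 of its 1024 control UMIs in 1 barcode. Tshb, the thyrotropin beta subunit, had 543 of 902 control UMIs in 1 barcode and went from -0.85 to 0.47. Among the genes higher in the stress library, 1 barcode held 168 of 253 Spp1 UMIs, 113 of 223 Gsn UMIs and 68 of 258 Sparc UMIs. Without mixed barcodes their ratios went from 1.62, 1.39 and 1.04 to 0.54, 0.63 and 0.44.

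Genes of protein entry, folding and export in the ER were slightly higher in stress lactotropes. Of 32 measured members, 27 were higher and none past 1.5-fold, beside 51.1% and 2.81% of all genes. Their median was 0.16, against -0.02 in somatotropes. Relative to the median of all genes of each class the values were 0.15 and 0.13. Creld2 was the highest, at 78.7 and 114 CPM (0.54, 0.31 to 0.77), followed among the named members by Sdf2l1 at 270 and 368 CPM (0.44, 0.32 to 0.57) and Manf, a secreted ER stress protein, at 865 and 1090 CPM (0.33). The oligosaccharyltransferase subunit Rpn1 was the lowest, at 170 and 146 CPM (-0.22). The 13 measured genes of the unfolded protein and integrated stress responses had a median of 0.05, with 8 higher, from Atf4 at 65.4 and 92.0 CPM (0.49) to Sesn2 at -0.56. Herpud1, an ER-associated degradation gene, was at 176 and 236 CPM (0.42).

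Apart from ion channels, secretion and signaling lists lay close to the median of all genes, of which 51.1% were higher in stress lactotropes. Of 19 measured granule genes, 8 were higher (median -0.04), from Dbi at 104 and 161 CPM (0.63) to Sytl4 at -0.28. Chgb was at 7873 and 7169 CPM (-0.14), Scg2 at 2081 and 2429 CPM (0.22) and the prohormone convertase Pcsk1 at 49.4 and 71.9 CPM (0.54). The medians were -0.02 for exocytosis genes (10 of 21 higher), -0.02 for dopamine and G protein signaling (9 of 20) and -0.15 for ion channels (5 of 17), where Kcnk2 was at 67.6 and 39.9 CPM (-0.76). Of the 17 ion channel genes, 3 were more than 1.5-fold lower, beside 4.12% of all genes. Lineage transcription factors had a median of -0.07 (6 of 12 higher), with Pou1f1 at 532 and 628 CPM (0.24, 0.15 to 0.33), Insm1 the highest at 0.49 and Etv1 the lowest at -0.71. Sex steroid and thyroid receptors were at -0.05 (4 of 10), with Esr1 at 72.2 and 68.8 CPM (-0.07, and 0.36 after the same subtraction of other barcodes) and Vdr the highest at 0.94 from 16 and 34 UMIs. Prolactin receptor and STAT signaling genes were at 0.00 (5 of 11), with Stat5b the lowest at -0.53. The paracrine factors were at -0.08 (3 of 8 higher), with Gal at 38.9 and 34.8 CPM (-0.16). The measured receptors of releasing factors were at 0.04 (4 of 5), where Agtr1a was the lowest at 79.6 and 55.2 CPM (-0.53, -0.80 to -0.25). All other pituitary barcodes stood at -0.71 and somatotropes at -1.23, and after subtracting the former Agtr1a turned to 0.18.

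Of 14 measured glucocorticoid-responsive genes, 8 were higher and 6 lower in the stress library, where 51.1% of all genes were higher. Their median was 0.09, against 0.06 in somatotropes. Relative to the median of all genes of each class the values were 0.09 and 0.21, and 8 of the 14 were lower in lactotropes. Past 1.5-fold, 3 were higher (Cdkn1a, Gadd45g and Dusp1) and none lower, beside 2.81% and 4.12% of all genes. Dusp1, a MAP kinase phosphatase, was at 35.5 and 64.0 CPM (0.85), against 1.61 in somatotropes. With a Prl limit of 5% the median was -0.05. Cdkn1a, a cell cycle inhibitor, was the highest at 5.86 and 17.3 CPM (1.53, 0.80 to 2.38), with 14 of its 61 stress UMIs in 1 barcode, and Errfi1 the lowest at -0.38. Receptor and cofactor genes had a median of 0.08 (4 of 6 higher), with the HSP90 co-chaperone Ptges3 the highest at 0.28.

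**Figure D5:**
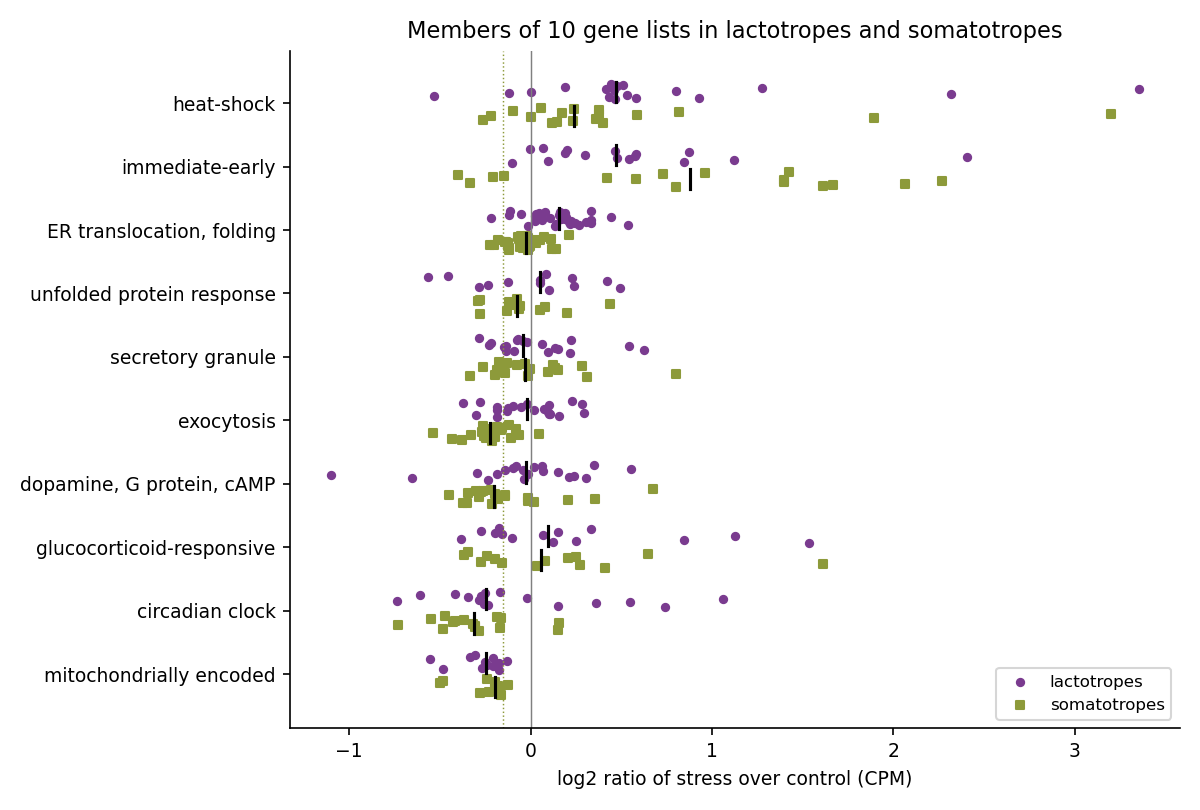
Log2 ratios of stress over control (x axis) for the members of 10 gene lists (y axis) with at least 50 UMIs in lactotropes, purple circles for lactotropes and olive squares for somatotropes. Black bars are list medians, the grey line is 0 and the dotted line is the median of all genes in somatotropes (-0.15). The immediate-early median is 0.47 in lactotropes and 0.88 in somatotropes, and the heat-shock median 0.47 and 0.24.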

How the data were processed

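Single-cell suspensions of pooled tissue were profiled with 10x Genomics chemistry, per the labels' protocols. The authors deposited unnormalised UMI counts per gene and barcode. Cell Ranger 2.1.1, Scanpy and mm10 are named in the submitters' processing notes, and cell calling is not given in the sources used here. Each table held 27998 genes.

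UMIs were summed over lactotropes per library with Python 3.11.15, numpy 2.4.6, scipy 1.17.1 and pandas 2.3.3. Counts were scaled to CPM, and log2 ratios of stress over control used a pseudocount of 0.5 UMI. Intervals are exact Poisson or Clopper-Pearson intervals and cover counting error only. With 1 library per condition no test between conditions was made, and "past 1.5-fold" stands in for a call. Classes compared were somatotropes (Gh at least 30%), Pomc cells (Pomc at least 5%), gonadotropes (Lhb and Fshb at least 1%) and barcodes with at least 5 UMIs of endothelial, macrophage or stem and folliculostellate markers. No doublets were removed in the main values. The calculation was tested on simulated data.

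The genes named were the role genes and the highest and lowest members of each list. Also named were the 12 highest and 12 lowest by the interval bound nearest 0 (at least 100 UMIs, in at least 5% of lactotropes). The 15 highest and 10 lowest against somatotropes (at least 100 UMIs in lactotropes) and the 5 most and least correlated with Prl were named too. The members and lists were chosen with earlier results of these data known. Coordinates are from GENCODE vM21 (GRCm38), matched by gene ID for 602 of 602 genes. Six6 was named after its values were seen. A few genes the rule names are not reported here. Alternatives varied the filters, hormone limits, doublets, depth, scaling and count minimum.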

Additional observations from a re-analysis of the deposited data

Results flagged for a closer look

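Tshb stood in opposite directions in lactotropes and somatotropes, with log2 ratios of stress over control of -0.85 and 0.60. The difference was not tested, since each condition had 1 library. In the control lactotropes, 1 barcode held 543 of 902 Tshb UMIs, and without mixed barcodes the lactotrope ratio was 0.47.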

How the results depend on the processing

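The list medians of heat-shock, ER and immediate-early genes kept their direction under the alternatives run, except that immediate-early genes were at -0.24 after subtracting the ratio of other pituitary barcodes, where heat-shock genes were at 0.19. The same subtraction gave 379 genes higher and 130 lower, -0.26 for Fos, -0.35 for Junb, -0.90 for Egr1, 0.36 for Esr1 and 0.18 for Agtr1a, each opposite to its main value. The glucocorticoid-responsive median was -0.10 at a minimum of 20 UMIs. The small log2 ratio of Prl was -0.0695 with a Prl limit of 5%, -0.00102 at 20%, -0.0867 with at least 2000 genes, -0.0861 with at most 10% mitochondrial UMIs, -0.0677 when thinned, -0.0839 with the median of all genes set to 0, -0.12 after the subtraction, -0.10 without hormone totals and -0.0581 without mixed barcodes. The lactotrope share was 8.53% and 9.02% at a Prl limit of 5%, 5.41% and 5.21% at 20%, and 8.51% in the stress library with at least 2000 genes. Higher and lower genes numbered 458 and 810 at a minimum of 20 UMIs, 48 and 27 at 200, and 138 were lower when thinned. Plvap turned from 1.19 to -0.95 (Prl limit 20%), -0.94 (doublet scores) and -0.60 (without mixed barcodes), Apoe to 0.054 (doublet scores) and 0.14 (without mixed barcodes), and Tshb to 0.63 (at least 2000 genes) and 0.47 (without mixed barcodes). The cause was not tested. The 16 settings included the minimums of 20 and 200 UMIs, which gave no single-gene values. Of 644 single-gene values under the others, 547 stayed within the counting interval of the main value, 89 moved and 8 reversed. Reversed means a turned sign for a gene past 1.5-fold in the main values. Other turned signs, such as those of Egr1, Esr1 and Agtr1a, were counted as moved or within the interval. The settings of at least 2000 genes and of mixed barcodes, and the ER list median, were chosen after seeing the data. No paired analysis was possible because each group had 1 library. Depth limits genes such as Nr3c1, Drd2 and Trhr, with few UMIs over all lactotropes.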

Other observations

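Transcripts encoded by the mitochondrial genome were lower in the stress lactotropes for each of the 12 measured genes, with a median of -0.25 and a range from mt-Nd3 at 229 and 156 CPM (-0.55) to mt-Nd2 at 827 and 755 CPM (-0.13). In somatotropes the median was -0.20 and none of the 12 was higher, beside 17.3% of all genes. Taken against the median of all genes of each class, the medians were -0.25 in lactotropes and -0.04 in somatotropes. Nuclear genes of the respiratory chain were higher for 15 of 16 in lactotropes (median 0.13), beside 51.1% of all genes. They ranged from Cox5a at 119 and 160 CPM (0.43) to Atp5e at -0.04. More control lactotropes had over 8% mitochondrial UMIs, 73 against 26, and the part of these barcodes in the result was not tested.

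Clock genes were lower for 11 of 16 in stress lactotropes (median -0.24, somatotropes -0.31), where 51.1% of all genes were higher. Set against the median of all genes of each class, these medians were -0.25 and -0.16. Dbp, a clock output factor, was at 35.5 and 21.2 CPM (-0.74), against -0.73 in somatotropes, and Nfil3, which opposes it at shared sites, was the highest at 7.10 and 15.0 CPM (1.06). Both measured cold-inducible RNA-binding protein genes were lower, Cirbp at 176 and 116 CPM (-0.60, somatotropes -0.59) and Rbm3 at -0.06.

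Counts of higher genes in the following lists stand beside 51.1% of all genes. Of 14 genes of cholesterol synthesis, 10 were higher (median 0.14), as were oxidative stress genes for 10 of 14 (0.13), led by Srxn1 at 45.1 and 74.2 CPM (0.72). Interferon and antigen presentation genes were higher for 6 of 11 (0.23). B2m, the light chain of MHC class I, was at 152 and 257 CPM (0.76) and at 0.48 in somatotropes. Ifitm3, the highest of that list at 1.03, had 24 of its 63 stress UMIs in 1 barcode and was at 0.08 without mixed barcodes. Metallothioneins were higher for 1 of 3, tumor-associated pituitary genes for 6 of 10 and proliferation genes for 2 of 2 measured members. The male-specific transcript Ddx3y had 204 and 234 UMIs in lactotropes and Xist had 0, in libraries whose labels give no sex.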
